A study of Mus musculus with 6 samples.

Results

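Bone morphogenetic protein (BMP) signalling was followed through 10 genes in single nuclei of the photothrombotic (PT) brain lesion, in which light activates a dye in the cortical vessels and clots them. The 10 genes were taken by name from the 32285 genes of the deposited tables, as ligands (Bmp4, Bmp5, Bmp6 and Bmp7), receptors (Bmpr1a, Bmpr1b and Bmpr2) and target genes of the pathway (Smad6, Id1 and Id3), and their unique molecular identifiers (UMIs, one per captured RNA molecule) were counted in 6 libraries. Control (Ctrl) libraries came from wild-type (WT) mice at 7 and 21 days post injury (dpi). The study does not state, for these libraries, whether control mice were given tamoxifen or an isotype antibody. ADWA11 libraries came from WT mice given ADWA11, a blocking antibody to the TGFβ-activating integrin αvβ8, from the day of injury onward. Tgfbr2-cKO libraries came from mice carrying Col1a2(creER) and Tgfbr2(flox), in which tamoxifen removes the TGFβ receptor from cells with an active Col1a2 promoter, which are mainly but not only fibroblasts. All animals had been injured, lesions were dissected, and nuclei of 1 female and 1 male animal were pooled in a library. There was thus 1 library per group and no replicate library. Intervals below are therefore 95% counting intervals, which leave out the spread between mice, and no p-value is given. Female and male nuclei, told apart by sex-linked transcripts, stand for 1 mouse each and are given beside the pooled values.

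BMPs are secreted dimers of the TGFβ superfamily that bind a type I receptor (BMPR1A or BMPR1B) together with the type II receptor BMPR2. The receptors phosphorylate SMAD1, SMAD5 and SMAD9, which enter the nucleus with SMAD4 and switch on ID genes, whose products block basic helix-loop-helix transcription factors, and Smad6, whose product inhibits the pathway in return. In the brain, BMPs pattern the meninges, steer neural precursors towards astrocytes and restrain oligodendrocyte formation.

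The 6 libraries held 64798965 to 140310354 UMIs, and 61906 nuclei remained after filtering. The 10 genes were left out of the genes used for clustering, so that no class was formed by them. All 6 endothelial, 7 mural, 6 neuronal, 6 oligodendrocyte and 8 T cell markers had their highest level in the class named after them, as had 6 of 7 myeloid, 5 of 6 astrocyte and 5 of 8 oligodendrocyte precursor markers. For fibroblasts this held for 2 of 6 (Dcn and Col3a1), because Col1a1, Col1a2, Pdgfra and Lum were highest in a small osteoblast-like cluster of 235 nuclei that was kept apart. Fibroblasts numbered 1974 in Ctrl, 2545 in ADWA11 and 333 in Tgfbr2-cKO mice at 7 dpi, and 4502, 3124 and 894 at 21 dpi. Class make-up was uneven, with 5939 of the 7118 neurons in the Tgfbr2-cKO library at 7 dpi, and levels are therefore given within classes, as UMIs of the gene relative to all non-mitochondrial UMIs of the class, on the usual CPM scale. Pairs of libraries shared 21 to 61 barcodes. Tgfbr2 itself stood in fibroblasts at 315 CPM in Ctrl, 243 in ADWA11 and 232 in Tgfbr2-cKO mice at 7 dpi, and at 220, 189 and 184 CPM at 21 dpi. The floxed part is an internal exon, away from the 3′ end that was sequenced, so this level does not check the deletion.

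Of the 4 ligand genes, Bmp5, Bmp6 and Bmp7 were highest in fibroblasts. Bmp5 (chr9:75775364-75900310 of GRCm38, plus strand), a ligand of skeletal and mesenchymal development, stood in fibroblasts at 333, 362 and 399 CPM at 7 dpi in Ctrl, ADWA11 and Tgfbr2-cKO, and at 201, 136 and 210 CPM at 21 dpi. Mural cells, the pericytes and smooth muscle cells of vessels, were next, with 154 to 223 CPM over the 5 libraries with at least 50 mural nuclei, and the ranges of the 2 classes overlapped. No other class exceeded a mean of 20.7 CPM of Bmp5. Fibroblasts held 71.8% to 87.1% of all Bmp5 UMIs of a library.

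Bmp6 (chr13:38345107-38500302, plus strand), a ligand also known for setting liver iron sensing from endothelium, stood in fibroblasts at 694, 605 and 642 CPM at 7 dpi and at 304, 126 and 541 CPM at 21 dpi, in the same order of groups. Endothelial cells were the second class, at 66.9 CPM in Ctrl and 66.5 in ADWA11 at 7 dpi, and at 134, 183 and 66.7 CPM in Ctrl, ADWA11 and Tgfbr2-cKO at 21 dpi. The summed fibroblast markers in those endothelial nuclei were 1286, 960, 2526, 1784 and 208 CPM, and called doublets made up 10.7%, 12.7%, 24.2%, 21.8% and 4.58% of them. The part of either in the endothelial Bmp6 was not tested. Fibroblasts held 51.9% of Bmp6 UMIs in the neuron-rich Tgfbr2-cKO library at 7 dpi and 76.3% to 89.5% in the other 5.

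Bmp7 (chr2:172868012-172940321, minus strand), a ligand of kidney and meningeal development, stood in fibroblasts at 53.5, 62.2 and 61.8 CPM at 7 dpi and at 34.1, 25.3 and 71.7 CPM at 21 dpi. Oligodendrocyte precursors followed with 9.04 to 29.5 CPM and T cells with 16.6 to 22.8 CPM. The fibroblast values lay above both ranges in all libraries except ADWA11 at 21 dpi, where Bmp7 in fibroblasts was within the range of oligodendrocyte precursors.

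Bmp4 (chr14:46383520-46390669, minus strand), the ligand best known for blocking oligodendrocyte maturation, was highest in oligodendrocyte precursors. These carried 85.8, 116 and 101 CPM in Ctrl, ADWA11 and Tgfbr2-cKO mice at 7 dpi, and 131 and 142 CPM in Ctrl and Tgfbr2-cKO at 21 dpi. Fibroblasts carried 19.7 to 46.5 CPM, below each of these. Precursors held 42.6%, 63.6% and 60.0% of Bmp4 UMIs at 7 dpi and 11.2%, 5.91% and 26.0% at 21 dpi, when the library of ADWA11 had 39 precursor nuclei left against 1015 at 7 dpi. Between libraries, the log2 ratio of Bmp4 in fibroblasts from 7 to 21 dpi was 0.97 in Ctrl (0.79 to 1.15), 0.55 in ADWA11 (0.39 to 0.70) and 1.02 in Tgfbr2-cKO (0.59 to 1.48).

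**Figure D1:**
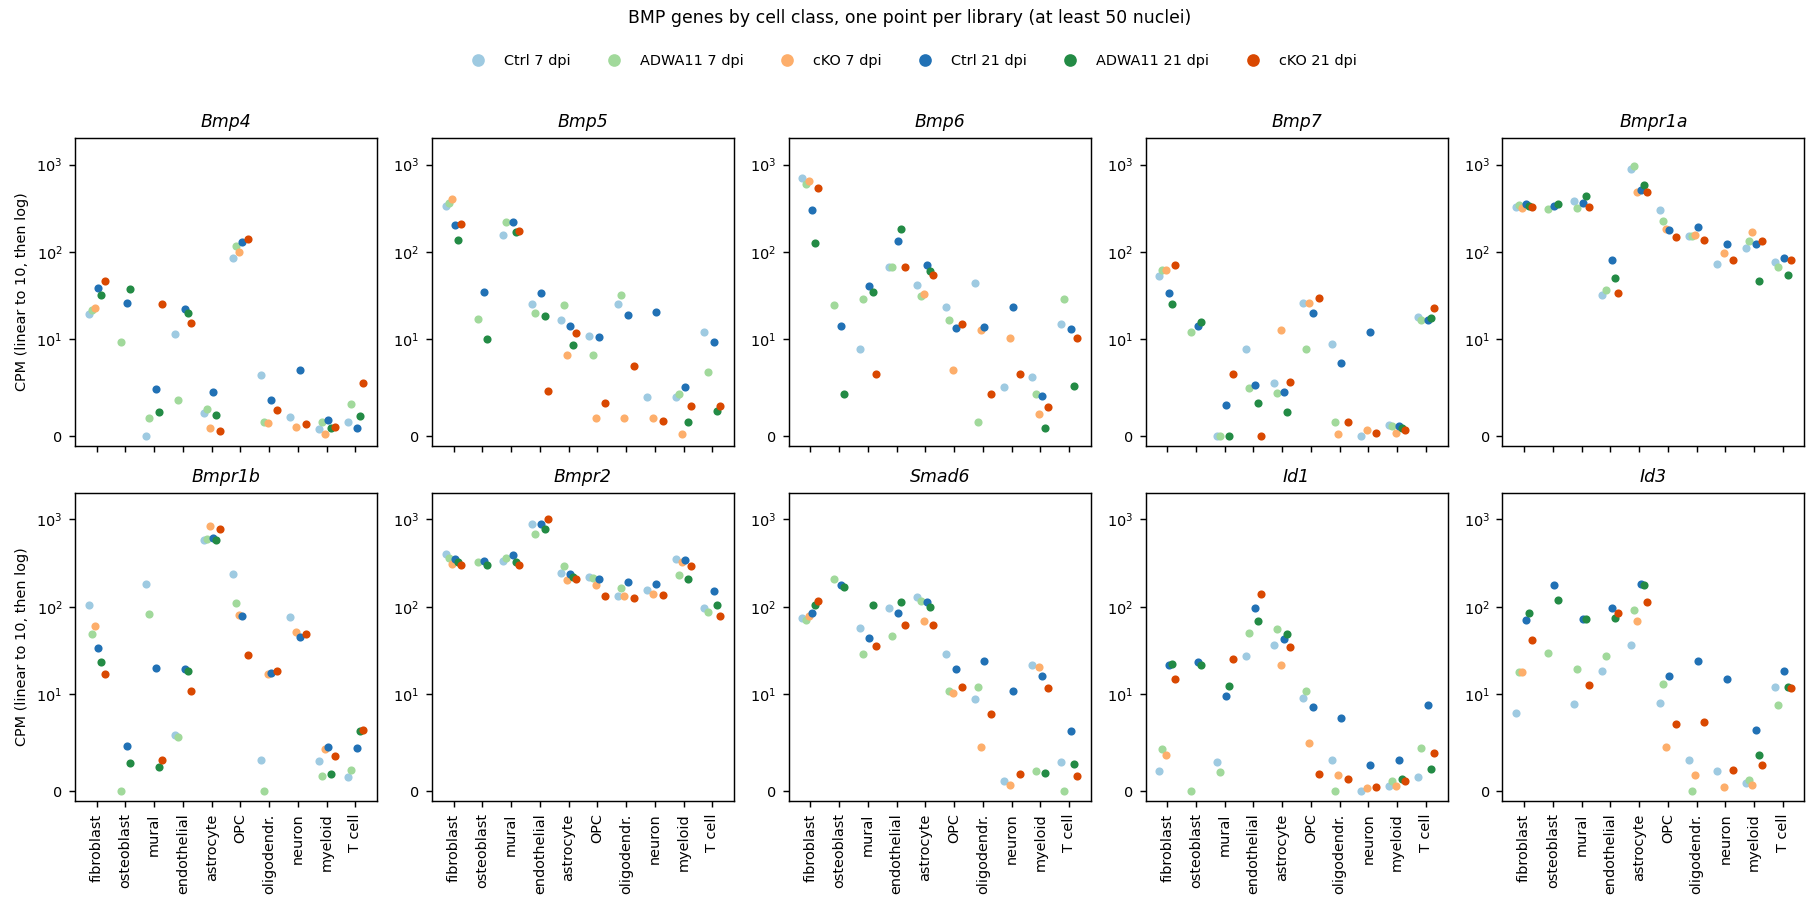
CPM of each of the 10 BMP genes in 10 cell classes (OPC, oligodendrocyte precursors), 1 point per library with at least 50 nuclei of the class, on an axis that is linear to 10 and logarithmic above. By the mean over libraries, Bmp5, Bmp6 and Bmp7 were highest in fibroblasts, Bmp4 in oligodendrocyte precursors, Bmpr1a and Bmpr1b in astrocytes, Bmpr2 and Id1 in endothelial cells.

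Bmpr1a and Bmpr2 were spread more widely over classes than ligand genes, while the level of Bmpr1b stood out in astrocytes. Bmpr1a (chr14:34410734-34503341, minus strand), the widely used type I receptor, stood in astrocytes at 895, 967 and 483 CPM at 7 dpi and at 513, 581 and 490 CPM at 21 dpi. In fibroblasts it stayed between 319 and 349 CPM over all 6 libraries, and mural cells overlapped it with 316 to 436 CPM. Bmpr1b (chr3:141837136-142169425, minus strand), the second type I receptor, was read in astrocytes at 586, 601 and 848 CPM at 7 dpi and 611, 575 and 778 CPM at 21 dpi. The 2 Tgfbr2-cKO libraries were the highest for Bmpr1b in astrocytes, with log2 ratios to Ctrl of 0.53 (0.41 to 0.66) at 7 dpi and 0.35 (0.29 to 0.40) at 21 dpi. In the same nuclei summed astrocyte markers were 9977 CPM in Tgfbr2-cKO and 2925 in Ctrl at 7 dpi and 9155 and 4492 at 21 dpi, and summed fibroblast markers 70.0 and 731 CPM at 7 dpi and 86.8 and 1271 at 21 dpi. Their part in the Bmpr1b levels was not tested. No library of any other class came near the astrocyte range of Bmpr1b, the next class being oligodendrocyte precursors at 27.8 to 239 CPM. Bmpr2 (chr1:59763400-59879014, plus strand), the type II receptor whose loss causes pulmonary hypertension, was highest in endothelial cells at 683 to 1016 CPM, against 302 to 402 CPM in fibroblasts and 303 to 391 CPM in mural cells.

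Among the target genes, Id1 (chr2:152736251-152737410, plus strand) and Id3 (chr4:136143497-136145755, plus strand) were read in vessels, astrocytes, fibroblasts and osteoblast-like nuclei. Id1 stood in endothelial cells at 27.4 and 49.8 CPM at 7 dpi in Ctrl and ADWA11 and at 97.6, 68.2 and 141 CPM at 21 dpi in Ctrl, ADWA11 and Tgfbr2-cKO. Astrocytes ranged from 21.6 to 55.6 CPM for Id1 and overlapped the endothelial range. Id3 was highest in astrocytes, at 36.3 to 183 CPM, a range that overlapped that of osteoblast-like nuclei, at 29.2 CPM in ADWA11 at 7 dpi and 179.6 and 121 CPM in Ctrl and ADWA11 at 21 dpi, and that of endothelial cells at 18.4 to 96.6 CPM.

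Smad6 (chr9:63953076-64022059, minus strand), the inhibitory SMAD, was shared by several classes. It stood at 168 to 210 CPM in the 3 libraries with at least 50 osteoblast-like nuclei, at 61.5 to 130 CPM in astrocytes, at 70.7 to 117 CPM in fibroblasts and at 46.6 to 114 CPM in endothelial cells, and the last 3 overlapped. Its promoter is shown because Smad6 gave the widest ratio between treatments of any member with at least 100 UMIs in fibroblasts, myeloid cells or astrocytes, namely in myeloid cells. The 250 bases before its start site, chr9:64022060-64022309 of GRCm38.p6 on the minus strand, were taken from RefSeq, with GTCT, the core letters bound by SMAD proteins, in capitals (read on both strands, where its reverse complement is AGAC).

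Smad6 promoter: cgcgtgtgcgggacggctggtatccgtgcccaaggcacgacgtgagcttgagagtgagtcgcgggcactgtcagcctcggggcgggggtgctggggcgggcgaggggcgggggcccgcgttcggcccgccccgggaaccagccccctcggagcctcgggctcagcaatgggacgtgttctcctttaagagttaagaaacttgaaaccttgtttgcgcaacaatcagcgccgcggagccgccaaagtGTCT

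GTCT occurred 1 time in this window, and 82.9% of 32851 RefSeq promoter windows of the same length hold it on either strand. The 6 letters GGCGCC, part of the element through which BMP-activated SMADs bind Id1, were not in this window and were in 9.59% of all windows. Of the 8 members with a promoter entry, 2 (Bmpr1a and Bmpr2) held GGCGCC and 6 held GTCT. A member was counted if any of its windows held the letters, whereas the shares are of single windows. Bmp7 and Id1 had no entry.

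Within fibroblasts, ligands and Bmpr1b were divided between sub-clusters. Sub-cluster 3 (2073 nuclei, with Trpm3, Slc6a20a and Ptgds in the lead) had 6 arachnoid and 3 leptomeningeal markers raised. It is called arachnoid-like, after the barrier layer of the meninges. Sub-cluster 4 (1353 nuclei; Lama1 and Lamc3) held leptomeningeal and arachnoid markers in equal number and was left unnamed, as were sub-cluster 0 (4629 nuclei, led by Slc47a1 and Slc47a2), sub-cluster 2 (2505 nuclei, with the myofibroblast markers Cthrc1, Acta2, Postn and Fn1 raised) and sub-clusters 5, 6 and 7. Sub-cluster 6 (1073 nuclei; Caln1 and Cpa6 lead) had 4 osteoblast markers (Ibsp, Sp7, Runx2 and Alpl) and 3 myofibroblast markers raised, none among its 10 leading genes, and was kept among the fibroblasts. Sub-cluster 8 (262 nuclei) was proliferating-like. A further sub-cluster of 3954 nuclei led by leucocyte genes was left out of the class. Sub-clusters 5 and 7 lay for 93.3% and 93.5% in 1 library each, Ctrl and Tgfbr2-cKO at 21 dpi.

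Bmp6 was highest in the arachnoid-like nuclei in each library with at least 50 of them, at 2461 and 1309 CPM in Ctrl and ADWA11 at 7 dpi and at 1008, 488 and 1051 CPM in Ctrl, ADWA11 and Tgfbr2-cKO at 21 dpi. Sub-cluster 4 came next at 1284, 1174 and 1168 CPM at 7 dpi and 738, 468 and 1045 CPM at 21 dpi, and at 21 dpi its ADWA11 and Tgfbr2-cKO values lay within the counting intervals of the arachnoid-like ones. Bmp7 had the same 2 sub-clusters as its highest, at 146 to 200 CPM in the arachnoid-like nuclei and 77.2 to 147 CPM in sub-cluster 4, against at most 32.2 CPM in the other sub-clusters with at least 50 nuclei. Bmp4 was highest in the arachnoid-like nuclei at 21 dpi, at 99.2, 95.8 and 80.8 CPM in Ctrl, ADWA11 and Tgfbr2-cKO.

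Bmpr1b was laid out the other way. It stood at 1.1 to 4.7 CPM in the arachnoid-like nuclei and at 2.7 to 8.2 CPM in sub-cluster 4. In sub-cluster 2, with its raised myofibroblast markers, it stood at 143, 67.9 and 92.8 CPM in Ctrl, ADWA11 and Tgfbr2-cKO mice at 7 dpi, and in the proliferating-like nuclei at 288 and 88.6 CPM in Ctrl and ADWA11 at 7 dpi. Bmp5 did not part arachnoid-like nuclei from sub-cluster 2 in this way, with 336 and 507 CPM in the former and 431 and 404 CPM in the latter in Ctrl and ADWA11 at 7 dpi. Over libraries, sub-cluster 4 stood lower, at 80.6 to 202 CPM, against 293 to 507 in arachnoid-like nuclei and 220 to 543 in sub-cluster 2. Sub-clusters 5 and 7 were at 103 and 119 CPM, in 1 library each. Sub-cluster 6 was the lowest, at 11.1 to 22.0 CPM.

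**Figure D2:**
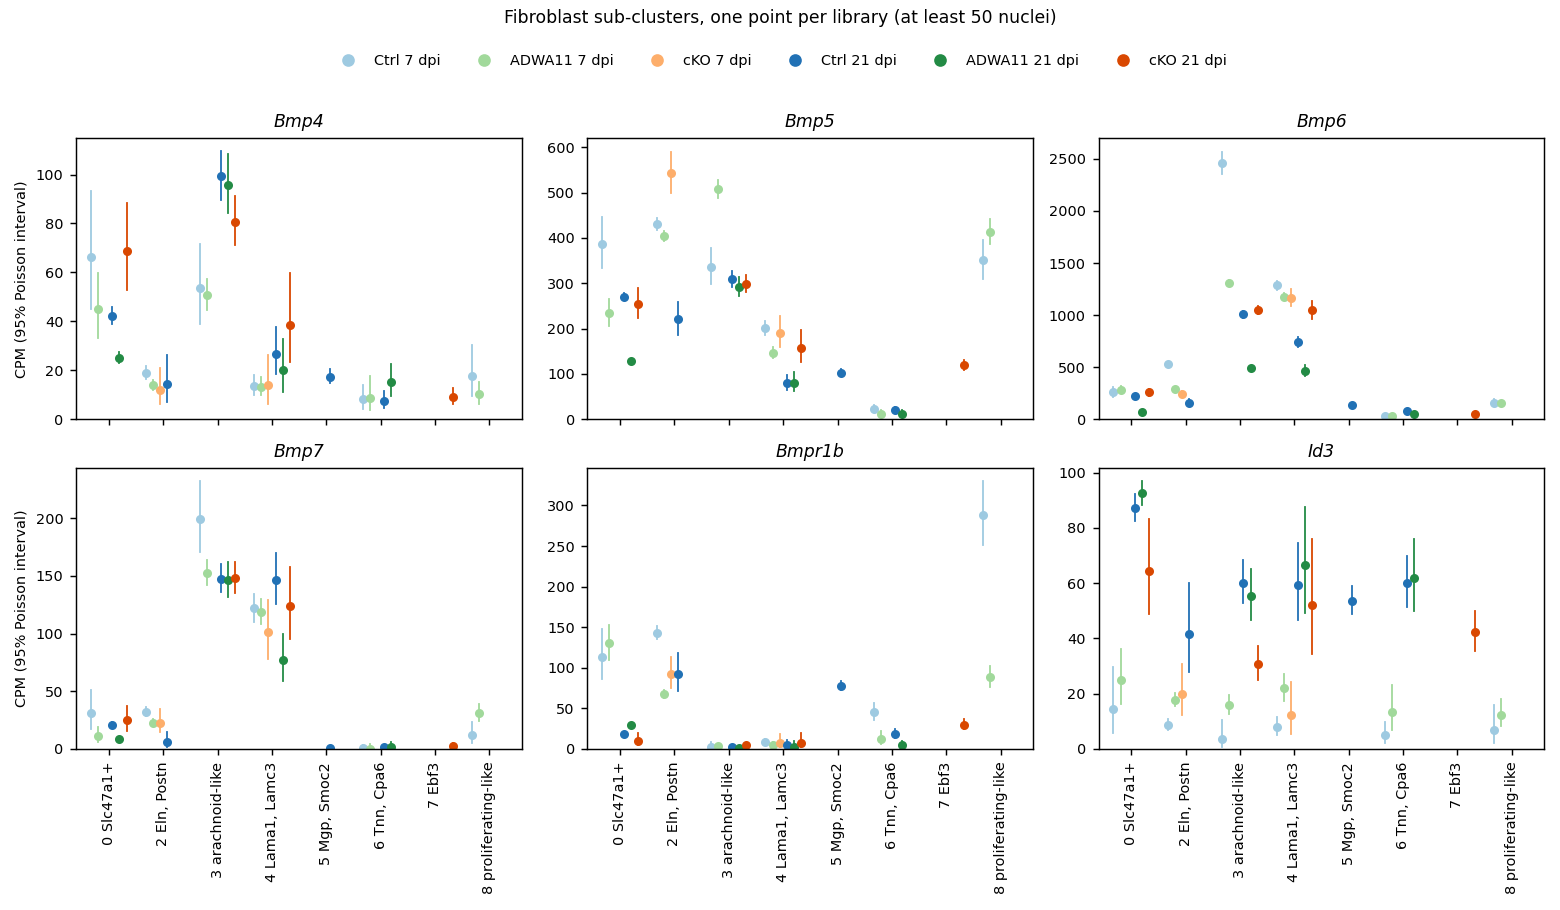
CPM of 6 BMP genes in 8 fibroblast sub-clusters, 1 point per library with at least 50 nuclei of the sub-cluster, with 95% Poisson intervals. Bmp6 and Bmp7 were highest in sub-clusters 3 and 4, where Bmpr1b was at most 8.2 CPM, and Id3 was higher at 21 than at 7 dpi in each sub-cluster measured at both times.

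Between 7 and 21 dpi, Id1 and Id3 were higher and Bmpr1b lower past 2-fold in fibroblasts of all 3 groups, while ligands went in both directions and Bmpr1a and Bmpr2 stayed under 2-fold. A gene was compared where the 2 libraries together held at least 100 of its UMIs in the class, and a ratio of at least 2-fold was counted. In Ctrl, 4 of 10 members were past 2-fold (Id1 and Id3 higher, Bmp6 and Bmpr1b lower), against 15.1% of 13724 genes. In ADWA11 it was 6 of 10 (Id1 and Id3 higher, Bmp5, Bmp6, Bmp7 and Bmpr1b lower), against 15.1% of 13995 genes. In named sub-clusters of ADWA11 Bmp5 was at -0.74 and Bmp7 turned to 0.31, while Bmp7 was at -0.55 in female and Bmpr1b at -0.69 in male nuclei. In Tgfbr2-cKO 4 of 10 were past 2-fold (Bmp4, Id1 and Id3 higher, Bmpr1b lower), against 9.29% of 9660 genes. In its named sub-clusters, 0 members with enough UMIs were, and Bmp4 was at 0.30. Bmp4 was also under 2-fold with the leucocyte-led sub-cluster kept (0.93) and without the arachnoid-marked cluster 9 (0.69). At 1.5-fold it was 7 of 10 in Ctrl, 6 in ADWA11 and 5 in Tgfbr2-cKO, against 30.3%, 29.1% and 23.3% of genes. The members' median log2 ratios were -0.03, -0.08 and 0.13, beside 0.06, 0.02 and -0.05 over all genes tested, since members moved in both directions.

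Id3 stood at 8.06, 17.8 and 17.8 CPM in Ctrl, ADWA11 and Tgfbr2-cKO fibroblasts at 7 dpi and at 70.7, 85.5 and 41.2 CPM at 21 dpi, without overlap between the days. The log2 ratio was 3.13 in Ctrl (2.88 to 3.40), 2.26 in ADWA11 (2.12 to 2.41) and 1.21 in Tgfbr2-cKO (0.72 to 1.74), the last at 0.86 in male nuclei and 0.71 in named sub-clusters. In female nuclei Id3 went from 8.5 to 63.6 CPM in Ctrl and in male nuclei from 7.5 to 83.5 CPM, so that both mice of each day lay apart from both of the other. In Ctrl the ratio was 4.08 in the arachnoid-like nuclei (2.51 to 6.36), 2.59 in sub-cluster 0 (1.54 to 3.91) and 2.28 in sub-cluster 2 (1.61 to 2.90). The first rests on 3.56 CPM of Id3 in 117 nuclei at 7 dpi, near the floor of 3 counts.

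Id1 was low at 7 dpi, at 2.10, 4.35 and 3.75 CPM, and stood at 21.7, 22.0 and 15.0 CPM at 21 dpi. Its log2 ratio was 3.37 in Ctrl (2.88 to 3.90), 2.34 in ADWA11 (2.04 to 2.65) and 2.00 in Tgfbr2-cKO (0.97 to 3.24), the last resting on 8 UMIs at 7 dpi. In named sub-clusters alone the Tgfbr2-cKO ratio of Id1 could not be read, since that library had 0 UMIs of it at 7 dpi in 37 arachnoid-like and 10 proliferating-like nuclei and the floor of 3 counts puts the ratio at no less than -0.45. Over all fibroblasts Smad6, in contrast, differed little between days. Its log2 ratios were 0.21 in Ctrl (0.12 to 0.31), 0.56 in ADWA11 (0.48 to 0.65) and 0.58 in Tgfbr2-cKO (0.34 to 0.82). Within sub-clusters Smad6 went both ways. In Ctrl its ratio was -0.88 in sub-cluster 2 (-1.496 to -0.33) and 0.52 in sub-cluster 6 (0.21 to 0.84). In ADWA11 it was 1.07 in sub-cluster 6 (0.75 to 1.41), from 111 to 234 CPM.

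Outside fibroblasts, Id3 and Id1 differed between days to unequal extent. In astrocytes Id3 was at 36.3, 92.6 and 68.2 CPM at 7 dpi and at 183, 177 and 113 CPM at 21 dpi, with a log2 ratio of 2.33 in Ctrl (1.91 to 2.79). It was 1 of 8 members past 2-fold between days in Ctrl astrocytes, a share near the 13.6% of 9658 genes, and Id1 there had a ratio of 0.25 (-0.20 to 0.73). In Ctrl endothelial cells the ratio was 2.39 for Id3 (1.88 to 2.94) and 1.83 for Id1 (1.41 to 2.29). Between these days the summed fibroblast markers went from 1286 to 2526 CPM in Ctrl endothelial nuclei and from 731 to 1271 CPM in Ctrl astrocytes, and called doublets from 10.7% to 24.2% and from 8.52% to 17.1%. The libraries also differed by day in quality measures. The median mitochondrial share of fibroblast nuclei was 0.251%, 0.325% and 0.301% at 7 dpi and 0.153%, 0.0921% and 0.149% at 21 dpi, and summed ribosomal protein genes were 3257, 3137 and 3438 CPM at 7 dpi and 3840, 4417 and 3150 CPM at 21 dpi. The 7 immediate early genes (Fos, Fosb, Jun, Junb, Egr1, Ier2 and Atf3, chosen after the ID values were seen) summed to 61.9, 77.1 and 81.5 CPM at 7 dpi and 60.9, 63.1 and 38.4 CPM at 21 dpi. The part of these measures in the ID gene levels was not tested.

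Bmpr1b was lower at 21 dpi in all 3 groups, and Bmp6 in Ctrl and ADWA11. The log2 ratio of Bmp6 was -1.19 in Ctrl (-1.23 to -1.15), -2.27 in ADWA11 (-2.32 to -2.21) and -0.25 in Tgfbr2-cKO (-0.34 to -0.16). In Tgfbr2-cKO its direction turned in male nuclei (0.14), in named sub-clusters (0.042) and without sub-clusters 5 and 7 (0.43). The Ctrl ratio was under 2-fold in female nuclei (-0.77), in named sub-clusters (-0.54) and without sub-clusters 5 and 7 (-0.95). Sub-clusters differed in direction. In Ctrl the ratio was -1.29 in the arachnoid-like nuclei (-1.37 to -1.21), -1.73 in sub-cluster 2 (-2.02 to -1.46), -0.80 in sub-cluster 4 (-0.90 to -0.69) and -0.18 in sub-cluster 0 (-0.44 to 0.09), but 1.37 in sub-cluster 6 (0.91 to 1.86), from 29.5 to 76.4 CPM. In ADWA11 it was -1.42 in the arachnoid-like nuclei (-1.51 to -1.34), -2.02 in sub-cluster 0 (-2.20 to -1.84) and -1.33 in sub-cluster 4 (-1.49 to -1.17), and 0.43 in sub-cluster 6 (-0.18 to 1.08). Bmpr1b was at 106, 48.3 and 60.9 CPM at 7 dpi and 34.0, 23.3 and 16.8 CPM at 21 dpi, without overlap. Its log2 ratio was -1.63 in Ctrl (-1.74 to -1.52), -1.05 in ADWA11 (-1.20 to -0.91) and -1.86 in Tgfbr2-cKO (-2.22 to -1.502). Summed astrocyte markers in the fibroblast nuclei were 822, 1015 and 1061 CPM at 7 dpi and 454, 506 and 1036 CPM at 21 dpi. Their part in the Bmpr1b levels of fibroblasts was not tested. Sub-cluster 2, one of those richer in Bmpr1b, held 1076 of 1974 Ctrl fibroblasts at 7 dpi and 69 of 4502 at 21 dpi. Within it the Ctrl ratio of Bmpr1b was -0.64 (-1.02 to -0.28), under 2-fold, and within sub-cluster 0 it was -2.58 (-3.00 to -2.13). Mural cells had 183 CPM of Bmpr1b in Ctrl at 7 dpi and 19.7 at 21 dpi, from 122 and 12 UMIs in 89 and 143 nuclei. The Ctrl value at 7 dpi also enters the mural ratio of ADWA11 to Ctrl. That ratio was past 2-fold lower over all mural nuclei, but -0.12 in female nuclei, 0.64 in male nuclei and -0.74 without called doublets.

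**Figure D3:**
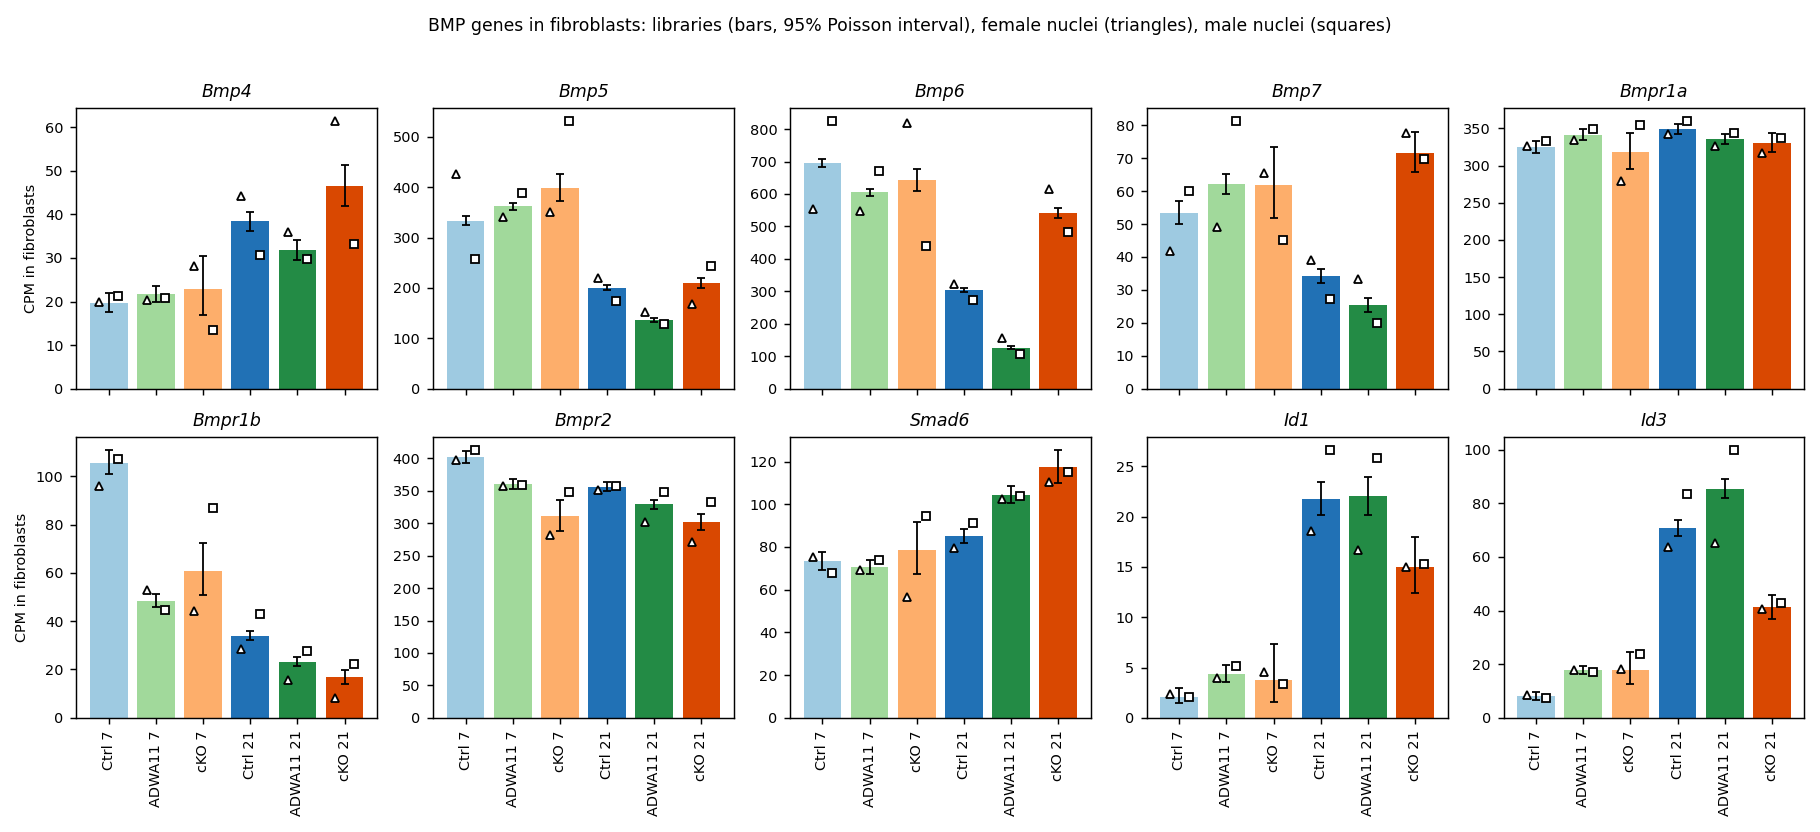
CPM of the 10 BMP genes in fibroblasts of the 6 libraries (bars, 95% Poisson intervals), with female (triangles) and male (squares) nuclei of each library, the numbers 7 and 21 standing for dpi. Id1 and Id3 were higher in all 3 libraries at 21 dpi than in all 3 at 7 dpi, and Bmpr1b was lower.

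With ADWA11 at 7 dpi, 3 of 10 members in fibroblasts were past 2-fold (Id1 and Id3 higher, Bmpr1b lower), against 5.71% of 13239 genes. Id3 had a log2 ratio of 1.14 (0.86 to 1.43) and was higher in both mice, at 17.9 CPM in female and 17.01 in male nuclei against 8.5 and 7.5 in Ctrl. Bmpr1b had a log2 ratio of -1.13 (-1.23 to -1.02), with 52.9 and 44.6 CPM in female and male nuclei against 96.1 and 107 in Ctrl. It was -1.08 in sub-cluster 2 (-1.20 to -0.95) and -1.70 in the proliferating-like nuclei (-1.99 to -1.41), but 0.19 in sub-cluster 0 (-0.27 to 0.67). Bmp6 was at -0.20 in the class (-0.23 to -0.16), but at -0.86 within sub-cluster 2 (-0.93 to -0.80) and -0.91 within the arachnoid-like nuclei (-0.98 to -0.84), which made up 532 of 2545 fibroblasts in ADWA11 and 117 of 1974 in Ctrl. With log-normalised clustering the arachnoid sub-cluster held 88 ADWA11 and 55 Ctrl nuclei at 7 dpi. In the other sub-clusters Bmp6 was at -0.13 in sub-cluster 4 (-0.19 to -0.07), -0.04 in the proliferating-like nuclei (-0.35 to 0.28), 0.14 in sub-cluster 0 (-0.16 to 0.45) and 0.27 in sub-cluster 6 (-0.43 to 0.95). Id1 had a log2 ratio of 1.05 (0.49 to 1.64), at 0.78 in female nuclei and 0.54 in named sub-clusters. Bmpr1b was at -0.86 in female nuclei and -0.91 without the arachnoid-marked cluster 9. With the leucocyte-led sub-cluster kept, or in female nuclei alone, 1 member was past 2-fold. At 1.5-fold it was also 3 of 10, against 15.4% of genes. In astrocytes at 7 dpi Id3 was again the member past 2-fold with ADWA11, 1 of 7 tested against 2.88% of 5940 genes, with a log2 ratio of 1.35 (0.89 to 1.84).

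At 21 dpi, 1 of 10 members was past 2-fold with ADWA11 in fibroblasts, against 4.38% of 14191 genes. This was Bmp6, at 126 CPM against 304 in Ctrl, a log2 ratio of -1.28 (-1.34 to -1.22). In named sub-clusters it was -0.995, so that 0 members were past 2-fold there. At 1.5-fold it was also 1 of 10, against 11.6% of genes. Female nuclei had 156 against 324 CPM and male nuclei 107 against 274, so that both ADWA11 mice were below both Ctrl mice. The difference was read in each of 4 sub-clusters with enough nuclei, at -1.70 in sub-cluster 0 (-1.79 to -1.61), -1.05 in the arachnoid-like nuclei (-1.14 to -0.95), -0.66 in sub-cluster 4 (-0.84 to -0.48) and -0.67 in sub-cluster 6 (-1.07 to -0.28). Bmp5 followed at -0.56 (-0.62 to -0.50) and Bmp7 at -0.43 (-0.57 to -0.29), both under 2-fold. Bmpr1b, at -0.55 (-0.70 to -0.40), was at 0.33 without sub-clusters 5 and 7, which Ctrl and Tgfbr2-cKO mostly held. Smad6 was past 2-fold higher with ADWA11 within sub-cluster 6, at 234 against 105 CPM in Ctrl (1.15, 0.92 to 1.38). It stood at 94.4 against 48.8 CPM in sub-cluster 4, 114 against 101 in the arachnoid-like nuclei and 93.5 against 96.8 in sub-cluster 0. In astrocytes none of 8 members was past 2-fold, beside 2.44% of 10338 genes.

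In Tgfbr2-cKO fibroblasts at 7 dpi, 1 of 9 members was past 2-fold, against 7.15% of 11069 genes. It was Id3, at 1.14 (0.58 to 1.67) from 38 UMIs in the Tgfbr2-cKO library, of which 13.2% lay in 1 nucleus. It was at 0.81 without the 5 nuclei with most Id3 UMIs, and 0 members were past 2-fold with TMM scaling or with the mean over nuclei. At 1.5-fold it was 2 of 9, a share near the 17.3% of genes. Bmpr1b was lower by a smaller ratio of -0.79 (-1.06 to -0.54), and its 2 mice differed, at 44.1 CPM in female and 86.7 in male nuclei. The 333 fibroblast nuclei of this library gave the widest intervals, and its female and male values also lay far apart for Bmp6, at 819 and 439 CPM. Bmp6 was at -0.11 in the class (-0.19 to -0.03) and at -1.14 within sub-cluster 2 (-1.34 to -0.96). In sub-cluster 4 (116 Tgfbr2-cKO and 431 Ctrl nuclei) it was only slightly lower, by the levels given above. Summed fibroblast markers were 3949 CPM in this library and 7662 in Ctrl, and their part in these ratios was not tested.

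At 21 dpi, 2 of 10 members were past 2-fold in Tgfbr2-cKO fibroblasts, against 12.3% of 13465 genes. Bmp7 was higher at 1.07 (0.92 to 1.22) and Bmpr1b lower at -1.02 (-1.29 to -0.76), while Bmp6 was higher at 0.83 (0.78 to 0.88), short of 2-fold. At 1.5-fold it was 4 of 10, against 25% of genes. Both Tgfbr2-cKO mice were above both Ctrl mice for Bmp6, at 617 and 484 against 324 and 274 CPM, and for Bmp7, at 77.6 and 69.9 against 38.9 and 27.1 CPM. Of the Tgfbr2-cKO fibroblasts 396 of 894 were arachnoid-like, against 613 of 4502 in Ctrl. This difference depended on the clustering. With log-normalised clustering the arachnoid sub-cluster held 399 Tgfbr2-cKO and 1728 Ctrl nuclei at 21 dpi. The summed fibroblast markers in fibroblast nuclei stood at 1620 against 6373 CPM. Summed astrocyte markers in the same nuclei were 1036 against 454 CPM. The part of either marker sum in the fibroblast ratios was not tested. In sub-cluster 4 (79 Tgfbr2-cKO and 222 Ctrl nuclei) Bmp6 stood higher in Tgfbr2-cKO than in Ctrl, by the levels given above. Within the arachnoid-like nuclei the ratio was 0.06 for Bmp6 (-0.01 to 0.13) and 0.01 for Bmp7 (-0.17 to 0.18). Without the cluster from which most of these nuclei came it was -0.05 for Bmp6 over all other fibroblasts, where 0 members were past 2-fold. Bmp7 was at 0.16 and Bmpr1b at -0.63 without that cluster, and Bmpr1b was at -0.96 in male nuclei. In named sub-clusters Bmp7 was at 0.086 and Bmpr1b at -0.91. Id3 was lower than in Ctrl at this time, at -0.78 (-0.95 to -0.61), and also in astrocytes at -0.69 (-0.82 to -0.57). None of 6 members at 7 dpi and none of 8 at 21 dpi was past 2-fold in Tgfbr2-cKO astrocytes, beside 14.7% of 5903 and 7.49% of 11543 genes. Smad6 in astrocytes came closest, at 130 CPM in Ctrl and 68.2 in Tgfbr2-cKO mice at 7 dpi and 113 and 61.5 at 21 dpi, with log2 ratios of -0.93 (-1.26 to -0.61) and -0.87 (-1.04 to -0.71). The astrocyte nuclei of Tgfbr2-cKO held more summed astrocyte and fewer summed fibroblast markers than those of Ctrl at both days, by the values given for Bmpr1b, and called doublets made up 6.42% against 8.52% of them at 7 dpi and 7.82% against 17.1% at 21 dpi. The part of these in the astrocyte Id3 and Smad6 differences was not tested.

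**Figure D4:**
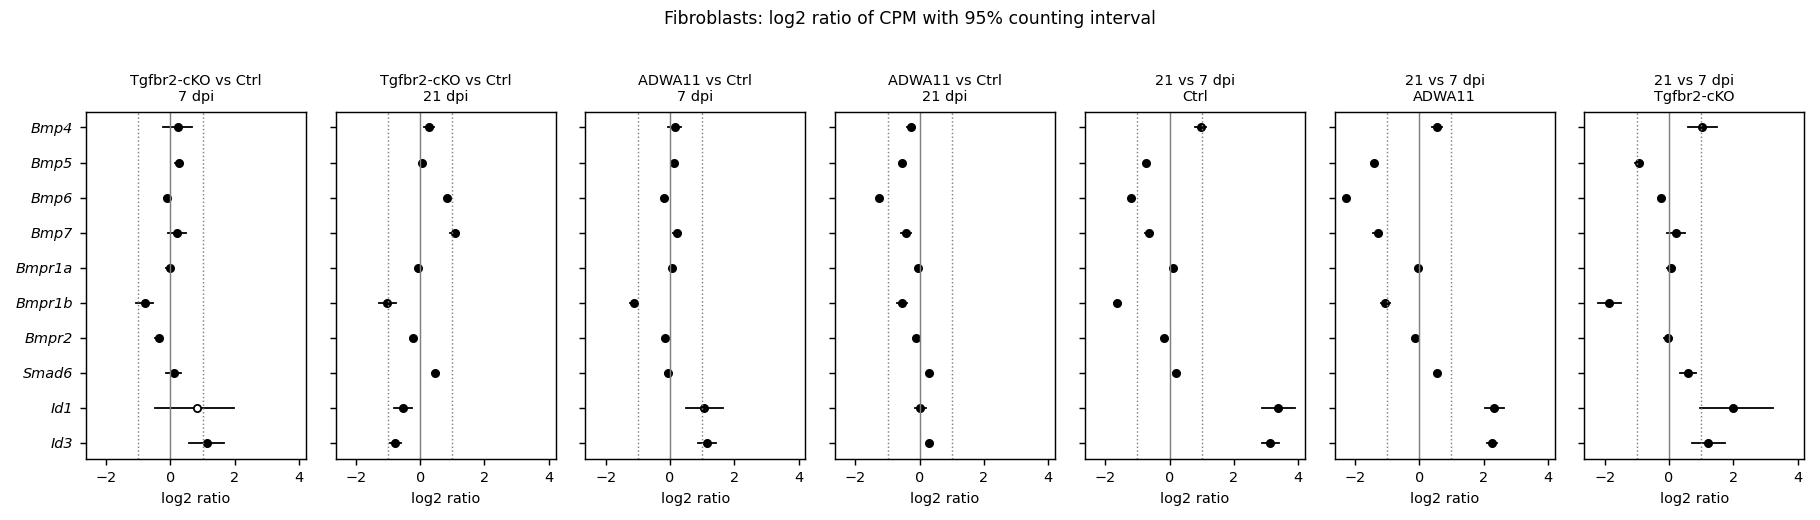
Log2 ratio of CPM of the 10 BMP genes in fibroblasts for the 7 comparisons, with 95% counting intervals, dotted lines at 2-fold and an open point for under 100 UMIs. Between days Id1 had the widest ratio in each group, at 3.37, 2.34 and 2.00 in Ctrl, ADWA11 and Tgfbr2-cKO, the last resting on 8 UMIs at 7 dpi, and Bmpr1b was to the left of 0 in all 7 panels, though at 0.33 for ADWA11 at 21 dpi without sub-clusters 5 and 7.

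In myeloid cells, the microglia and macrophages of the lesion, Smad6 was lower with ADWA11 at both days, and Bmpr1a differed within clusters. Smad6 stood at 21.3 CPM in Ctrl, 2.08 in ADWA11 and 20.6 in Tgfbr2-cKO mice at 7 dpi, and at 16.2, 1.89 and 11.7 CPM at 21 dpi. Both ADWA11 libraries lay below all 4 others, 10.2-fold below Ctrl at 7 dpi and 8.54-fold at 21 dpi. The log2 ratios were -3.35 (-3.74 to -2.99) and -3.09 (-3.53 to -2.67), from 70 UMIs against 443 and from 60 against 204. In the female and male nuclei of ADWA11 it was at 1.77 and 2.32 CPM at 7 dpi and 1.52 and 1.90 at 21 dpi, below each of the 8 other mice, which ranged from 9.44 to 24.0 CPM.

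The myeloid clusters that made up the class differed between libraries, so Smad6 was also read cluster by cluster. In cluster 1 (Ms4a7 and Stab1 lead) it was at 26.2 CPM in Ctrl and 1.70 in ADWA11 at 7 dpi, from 1402 and 2115 nuclei, a log2 ratio of -3.95 (-4.64 to -3.32). In the cycling cluster 17 the values were 29.6 and 1.70 CPM at 7 dpi, with a ratio of -4.12 (-5.09 to -3.28). Cluster 0 (Fabp4 and Cd5l) had 8.41 and 2.99 CPM at 7 dpi and 5.47 and 1.69 CPM at 21 dpi, with ratios of -1.49 (-2.63 to -0.22) and -1.69 (-2.57 to -0.72). In cluster 10, led by Cd36, Plau and Mmp12 and left unnamed outside the myeloid class, the ratio was -3.03 at 7 dpi (-3.76 to -2.35), but 0.18 at 21 dpi (-2.34 to 2.18), where ADWA11 had 3 UMIs in 60 nuclei. In cluster 18 (Cd163 and Mrc1) it was -2.27 (-4.38 to -0.15) and -1.46 (-3.68 to 0.87), from at most 5 UMIs a library. Cluster 3, with the microglial genes Siglech and Sall1, held 1475 nuclei in Ctrl but 20 in ADWA11 at 7 dpi and 576 against 1 at 21 dpi, and could not be compared for ADWA11. In Tgfbr2-cKO Smad6 was also lower in cluster 1 at 21 dpi, at 7.91 CPM against 17.3 in Ctrl (-1.13, -1.69 to -0.60). At 7 dpi that ratio was -0.38 (-0.96 to 0.17). In Tgfbr2-cKO at 21 dpi it was -0.04 in cluster 3 (-0.54 to 0.46) and -0.31 in cluster 0 (-1.70 to 1.00). Summed fibroblast markers in the myeloid class, a measure of RNA from other cells, were 572, 323 and 39.7 CPM in Ctrl, ADWA11 and Tgfbr2-cKO mice at 7 dpi and 939, 473 and 51.0 CPM at 21 dpi. Their part in the Smad6 levels was not tested.

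**Figure D5:**
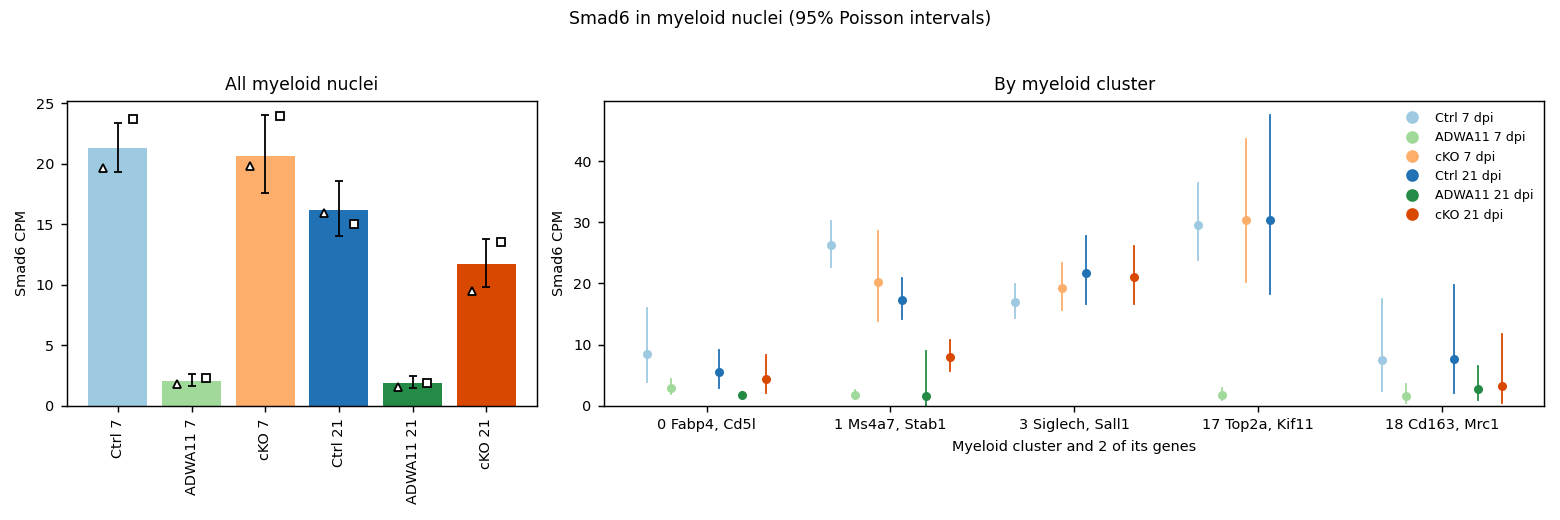
CPM of Smad6 in all myeloid nuclei of the 6 libraries (left, bars with 95% Poisson intervals, female nuclei as triangles, male nuclei as squares) and in 5 myeloid clusters (right, 1 point per library with at least 50 nuclei, the numbers 7 and 21 standing for dpi). The ADWA11 bars stood at 2.08 and 1.89 CPM, the other 4 between 11.7 and 21.3.

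With ADWA11 at 7 dpi Smad6 was the 1 of 6 members past 2-fold over the whole class, against 8.74% of 12854 genes. Bmpr1a, at 0.25 in the class (0.18 to 0.33), was higher within clusters, at 198 against 66.5 CPM in cluster 1 (log2 ratio 1.57, 1.43 to 1.72), 31.0 against 12.2 CPM in cluster 0 (1.35, 0.55 to 2.28) and 76.3 against 22.4 CPM in cluster 18 (1.77, 1.02 to 2.63). In the cycling cluster 17 its ratio was 0.40 (0.23 to 0.57). Outside the class it was 2.09 in cluster 10 (1.83 to 2.35) and -0.81 in cluster 16 (-1.83 to 0.16), also unnamed. Cluster 3, with 165 CPM of Bmpr1a in Ctrl, was the one that held 20 nuclei in ADWA11. Bmpr1a was also higher in Tgfbr2-cKO than in Ctrl at 7 dpi, at 0.59 in the class (0.49 to 0.69). Its Tgfbr2-cKO ratio was 0.98 in cluster 1 (0.73 to 1.21), 0.68 in cluster 17 (0.42 to 0.93) and 0.11 in cluster 3 (-0.01 to 0.23). Outside the class it was 1.84 in cluster 10 (1.44 to 2.24) and -1.01 in cluster 16 (-4.13 to 0.99). With ADWA11 at 21 dpi, 4 of 6 members were past 2-fold, all lower (Smad6, Bmpr1a, Bmp5 and Bmpr1b), against 11.6% of 12561 genes. Bmpr1a was at 46.1 against 124 CPM in Ctrl, at -1.43 (-1.54 to -1.33), though at -0.94 in female nuclei. Within clusters it went both ways at this day. Cluster 0, which held 4930 of the 5549 myeloid nuclei of that library, had 44.2 CPM in ADWA11 and 24.2 in Ctrl (0.87, 0.50 to 1.26) and cluster 1 had 190.1 against 146 CPM (0.38, 0.09 to 0.66), while cluster 18 had 30.3 against 48.3 CPM (-0.67, -1.38 to 0.07). The ratio was -0.46 in cluster 10 (-1.26 to 0.27) and -0.96 in cluster 16 (-1.68 to -0.20). Bmp5 was at 1.48 CPM against 5.07 in Ctrl and Bmpr1b at 1.77 against 4.51. Bmp5 was at -0.27 with log-normalised clustering, and Bmpr1b at -0.79 in female nuclei, -0.94 in male nuclei and -0.89 without called doublets. These are levels at which the part of RNA from other classes was not tested. In Tgfbr2-cKO, Bmp6 (1 of 4 tested at 7 dpi, beside 9.77% of 11616 genes) and Id3 (1 of 6 at 21 dpi, beside 6.08% of 11504 genes) were past 2-fold and lower, at 2.25 against 6.10 CPM and at 2.67 against 6.33 CPM. The summed fibroblast markers in these nuclei were 39.7 against 572 CPM at 7 dpi and 51.0 against 939 CPM at 21 dpi, and their part in both calls was not tested. Id3 was at -0.90 in female nuclei. Between days in Ctrl none of the 6 members with at least 100 UMIs was, beside 8.91% of 11907 genes. Id3 and Id1 fell short of that minimum and were not counted, at 6.33 CPM at 21 dpi against 0.817 at 7 dpi for Id3 (2.96, 2.19 to 3.80, from 80 and 17 UMIs) and 3.25 against 0.577 CPM for Id1 (2.49, 1.54 to 3.56, from 41 and 12 UMIs).

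Oligodendrocyte precursors gave a further difference in Bmpr1b. It was at 239, 111 and 79.6 CPM in Ctrl, ADWA11 and Tgfbr2-cKO mice at 7 dpi, and at 78.1 and 27.8 CPM in Ctrl and Tgfbr2-cKO at 21 dpi, where ADWA11 had too few nuclei. Of the libraries with at least 50 of these nuclei, Ctrl was the highest at each day, with log2 ratios at 7 dpi of -1.10 for ADWA11 (-1.23 to -0.97) and -1.58 for Tgfbr2-cKO (-1.81 to -1.36). The ADWA11 ratio was -0.80 in female nuclei, and with log-normalised clustering the ratios were -0.81 for ADWA11 at 7 dpi and -0.40 for Tgfbr2-cKO at 21 dpi. Smad6 in these cells was at 28.9 CPM in Ctrl, 10.9 in ADWA11 and 10.3 in Tgfbr2-cKO at 7 dpi, but its ADWA11 ratio of -1.41 (-1.81 to -1.01) was -0.15 in female nuclei.

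Of 45 other BMP pathway genes (ligands, receptors, secreted antagonists, mediators and targets), 21 to 31 had enough UMIs in fibroblasts, depending on the comparison. In Tgfbr2-cKO against Ctrl 1 of 23 was higher and 2 lower past 2-fold at 7 dpi, beside 7.15% of all genes, and 3 of 27 higher and 4 lower at 21 dpi, beside 12.3%. The antagonist Chrdl1 was at 0.937 CPM against 19.0 at 7 dpi (2 UMIs, log2 ratio -4.34, -7.39 to -2.48) and at 5.16 against 27.0 at 21 dpi, and the antagonist Fst, which binds activins and BMPs, at 27.1 against 2.53 CPM at 21 dpi. With ADWA11 none of 26 was past 2-fold at 7 dpi, beside 5.71% of all genes. At 21 dpi it was 3 of 31, beside 4.38%, with Chrdl1 higher, at 79.1 against 27.0 CPM, and Hey1 and Id4 lower. Between days in Ctrl 4 of 27 were higher and none lower, a share near the 15.1% of all genes, with the widest ratios in Gdf10, Id4 and Id2. Id2, another ID gene, was at 60.2 CPM at 21 dpi against 12.4 at 7 dpi, a log2 ratio of 2.27 (2.07 to 2.49). In ADWA11 5 of 27 were higher and 1 lower between days, beside 15.1% of all genes, and in Tgfbr2-cKO 4 of 21 were higher, beside 9.29%, among them Atoh8 and Smad9, the latter at 33.0 against 11.7 CPM.

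Genes whose levels ran most alike with a member were sought over 50 units of class and library, which share libraries and depth, so that Pearson's r is given as a description. Bmp5 was closest to Tbx18 and Tbx15 (r = 0.93 each), T-box factors of mesenchymal cells. Bmp6 was closest to 4930594M22Rik (0.91), Bmp4 to Pdgfra (0.83), the receptor that marks oligodendrocyte precursors and fibroblasts, Bmpr1b to Wwc1 (0.90) and Bmpr2 to Ptprm (0.91). Smad6 was closest to Pard3b (0.91), Id3 to Pard3bos1 (0.85) and Id1 to Plscr2 (0.81), while Bmpr1a reached 0.83 with Wdr35 and Bmp7 0.72 with Pdgfra.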

How the data were processed

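The authors deposited raw UMI counts per gene and barcode from 10x 3′ v3.1 libraries of sorted nuclei, aligned to mm10 with Cell Ranger 7.2.0 per the file headers (the submitters' processing notes name 7.1.0). Barcodes in the lowest or highest 2.5% of UMIs, genes or, at the top, mitochondrial share were removed per library, after the study's methods. Nuclei were clustered with SCTransform (Seurat 5.3.0, 30 components, resolution 0.5, and 0.2 for fibroblasts), without members, other pathway, sex-linked and mitochondrial genes, and clusters named from marker lists. Doublets were called against artificial pairs of nuclei. No cluster exceeded 50% called doublets, and called nuclei were kept except as an alternative. A cluster with arachnoid markers (cluster 9) was joined to the fibroblasts, and a leucocyte-led fibroblast sub-cluster was left out after the study's methods, both decided once the clusters were seen. UMIs were summed per library and class and scaled to CPM. Ratios have exact conditional binomial intervals, levels Poisson and shares Clopper-Pearson intervals at 95%, covering counting error only. With 1 library per group no test of a condition was made. The ratio step was tested on artificial counts. TMM factors came from edgeR 4.0.16. All 10 members, and up to 3 other pathway genes per comparison by size of ratio, were named. Members and lists were chosen with earlier results of these data known. Coordinates are from GENCODE for GRCm38, the build of mm10, and promoters from RefSeq (GRCm38.p6).
Alternatives were TMM scaling, the mean per nucleus, 1 sex alone, leaving out the 5 nuclei with most UMIs, log-normalised clustering, doublet removal, named sub-clusters only, lower UMI minimums and a 1.5-fold threshold. Keeping the leucocyte-led sub-cluster, leaving out cluster 9 and leaving out sub-clusters 5 and 7 were added after seeing the data. Library depths were 64798965 to 140310354 UMIs.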

Additional observations from a re-analysis of the deposited data

Results flagged for a closer look

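Ratios in fibroblasts were picked out where the counting interval lay above 0 on one day and below 0 on the other. The differences between days were not tested. The log2 ratio of Tgfbr2-cKO to Ctrl at 21 dpi minus that at 7 dpi was 0.94 for Bmp6 and -1.92 for Id3. The same difference for ADWA11 was -0.68 for Bmp5, -0.65 for Bmp7 and -0.13 for Bmpr1a. Signs on a single day depended on the processing. For ADWA11 at 7 dpi Bmp5 was -0.32 in female nuclei, Bmp7 -0.19 without cluster 9 and Bmpr1a -0.12 in named sub-clusters. For Tgfbr2-cKO Bmp6 was 0.57 in female nuclei at 7 dpi and -0.045 without cluster 9 at 21 dpi. Female and male nuclei of 1 library gave counting intervals on opposite sides of 0 in 4 cases, and these differences were not tested either. Female minus male, the log2 ratio differed by -0.91 for Bmp5 with ADWA11 at 7 dpi, by -1.32 for Bmp5 and 1.48 for Bmp6 in Tgfbr2-cKO at 7 dpi, and by -0.87 for Bmp5 in Tgfbr2-cKO at 21 dpi. Each sex stands for 1 mouse per library, so that sex and mouse cannot be told apart.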

How the results depend on the processing

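No paired analysis was made, and the labels give 1 library and no replicate number per group. Female and male nuclei, which share a library, are given separately and were not fitted as pairs. Of single-gene ratios under alternatives, 727 moved by less than their counting interval, 300 moved further and 29 changed sign. Part of these totals is not split by setting. The settings differed widely. In female nuclei alone 50 moved by less, 53 moved further and 4 changed sign, and in male nuclei alone 47, 55 and 3. In named sub-clusters it was 14, 42 and 12, and without called doublets 107, 1 and 1. Of member counts, 84 stayed within 1.5 times and 14 did not. Smad6 in myeloid cells with ADWA11 ranged from -3.57 to -3.24 at 7 dpi and from -3.50 to -2.98 at 21 dpi. Id3 in Tgfbr2-cKO fibroblasts at 7 dpi was 0.81 without its top 5 nuclei. Low UMI counts limit Id1 at 7 dpi, and the small number of nuclei limits all values of the 333 Tgfbr2-cKO fibroblasts at 7 dpi. Causes of the changes below were not tested.

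Members past 2-fold in fibroblasts changed as follows. Except at 1.5-fold, the number of members with enough UMIs and the share of all genes are not given for these counts. They can therefore not be read as shares. Named sub-clusters were 3 and 8 only, with 37 and 10 nuclei in Tgfbr2-cKO at 7 dpi. For Tgfbr2-cKO at 7 dpi there were 0 with TMM or the mean per nucleus and 2 at 1.5-fold, beside 17.3% of all genes. For Tgfbr2-cKO at 21 dpi there was 1 in female nuclei, 1 in male nuclei, 1 in named sub-clusters, 1 with the leucocyte-led sub-cluster, 0 without the arachnoid-marked cluster 9 and 4 at 1.5-fold, beside 25% of all genes. In named sub-clusters Bmp7 (0.086) and Bmpr1b (-0.91) were both under 2-fold, so the 1 counted there was another member. For ADWA11 at 7 dpi there was 1 in female nuclei and 1 with the leucocyte-led sub-cluster, and at 21 dpi 0 in named sub-clusters. Between days there were 7 at 1.5-fold in Ctrl, beside 30.3% of all genes, and 0 in named sub-clusters in Tgfbr2-cKO.

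Sign changes are listed only for log2 ratios whose main counting interval left out 0. In fibroblasts they were, in named sub-clusters only, Bmp4 -0.23 and Smad6 -0.18 (Tgfbr2-cKO, 21 dpi), Bmpr1a -0.12 (ADWA11, 7 dpi), Bmp4 0.00069008, Bmp7 0.045 and Id3 -0.14 (ADWA11, 21 dpi), and between days Bmp7 0.32 and Bmpr1a -0.015 in Ctrl, Bmp7 0.31 in ADWA11, and Bmp6 0.042, Smad6 -0.035 and Id1 -0.45 in Tgfbr2-cKO, the last a lower bound against 0 UMIs and so no change of direction. Without cluster 9 they were Bmp4 -0.33 and Bmp6 -0.045 (Tgfbr2-cKO, 21 dpi), Bmp5 -0.029 and Bmp7 -0.19 (ADWA11, 7 dpi). In female nuclei they were Bmp5 -0.28 and Bmp6 0.57 (Tgfbr2-cKO, 7 dpi) and Bmp5 -0.32 (ADWA11, 7 dpi), and in male nuclei Bmp6 0.14 (days, Tgfbr2-cKO). Bmp5 was -0.060 without its top 5 nuclei (Tgfbr2-cKO, 7 dpi) and Bmp7 -0.018 as mean per nucleus (ADWA11, 7 dpi). Without sub-clusters 5 and 7 Bmpr1b was 0.33 (ADWA11, 21 dpi) and Bmp6 0.43 (days, Tgfbr2-cKO). Elsewhere, endothelial Bmp6 was 0.41 in female nuclei (Tgfbr2-cKO, 21 dpi), endothelial Smad6 -0.035 in male nuclei (days, ADWA11), mural Bmpr1b 0.64 in male nuclei (ADWA11, 7 dpi), myeloid Bmp5 0.11 with log-normalised clustering (days, ADWA11) and precursor Bmp6 0.72 without called doublets (Tgfbr2-cKO, 7 dpi).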
